A study of Mus musculus with 36 samples.

Results

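The genes described here are 10 components of the NF-κB pathway measured in mouse monocytes, macrophages and dendritic cells. They comprise the transcription factor subunits Nfkb1, Nfkb2, Rel and Relb, the IκB proteins Nfkbia and Nfkbiz, and the regulators Tnfaip3, Traf1, Irak3 and Birc3. Members were taken as the array probes that carry one of these gene names, and 16 of 41174 probes did. All 10 genes passed the filter on dim probes, among 17607 genes that did, so no member is missing from what follows.

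NF-κB is a family of dimeric transcription factors that macrophages use to answer bacterial products and cytokines. IκB proteins hold the dimers in the cytoplasm, and signals from Toll-like and TNF-family receptors lead to their destruction and to entry of the dimers into the nucleus. Several of the genes that are then switched on encode IκB proteins, ubiquitin-editing enzymes and other brakes, so that the pathway limits itself.

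RNA came from 12 groups of cells with 3 arrays each, and all sorted cells were CD11b+ Ly6C+ Ly6G- bone marrow monocytes or their progeny after 7 days of culture. Regulatory macrophages (Mreg) were grown in 10% human AB serum, 10% fetal calf serum (FCS) and 5 ng/ml M-CSF, the macrophage growth factor, and received 25 ng/ml IFN-γ for the last 24 h. They were also prepared with 100 µg/ml LPS beside the IFN-γ (Mreg with LPS), without IFN-γ (Mreg without IFN-γ), and from unsorted adherent mononuclear cells of bone marrow, spleen and blood (unsorted Mreg). LPS is the bacterial ligand of the receptor Tlr4, and its dose is given as labelled. A second culture used 10% FCS with 20 ng/ml M-CSF and no human serum. Its cells received IFN-γ and LPS (M1), IFN-γ on dishes coated with human immunoglobulin (M2b), 25 ng/ml IFN-γ (IFN-γ macrophages), 20 ng/ml IL-4 (M2a), 1e-07 M dexamethasone (M2c) or nothing (M0), with doses of IFN-γ and LPS equal to those in Mreg. Every stimulus of the second culture was given for 24 h. Dendritic cells (Mo-DC) were grown in 10% FCS with 20 ng/ml GM-CSF and 20 ng/ml IL-4. They also received 25 ng/ml IFN-γ for 24 h, and uncultured monocytes formed the last group. The Mreg culture and the second culture therefore differ in serum and in M-CSF dose at once, and the effects of serum and dose cannot be told apart.

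The share of probes called well above background ranged from 50.1 to 57.6% over the 36 arrays. Separate animals or cultures behind the replicates are not stated, so p-values measure the spread between these samples only, which may be technical. All 5 macrophage markers tested were well above background on every array of the cultured groups. In the sorted monocytes, 6 of 6 neutrophil markers tested were above background on all 3 arrays, with a summed signal of 2275 to 2997 times the array's 75th percentile, against at most 18.8 in any array of the other groups. The summed T and NK cell markers (26.9 to 50.2) and erythroid markers (58.3 to 111) were also highest in the monocytes. So were the summed B cell markers (3.37 to 3.63) and stromal markers (0.734 to 1.48). The T and NK cell sum was carried by Nkg7 (mean log2 level 5.22 in monocytes), and Cd3g and Klrb1c were highest there too. Cd3e (-2.94 in monocytes) was lower there than in every other group but M2b (-3.17). Lck had -1.12 in monocytes and -0.82 in Mreg with LPS. Levels are given as log2 signal relative to the 75th percentile of the array, so 0 is the level of that percentile, and each gene's level is set only against itself. In RNA from whole cultures, fewer cells that express a gene and less RNA per cell cannot be told apart.

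The promoters of the members are shown because several of these genes are themselves NF-κB targets. RefSeq windows on GRCm38.p6, from 250 bases before to 50 bases after the start of transcription, were matched for 7 of the 10 members, with 11 windows in all. A κB consensus, the 10-base NF-κB recognition motif, was searched on both strands. It occurred in 6 of the 11 windows and in 4 of the 7 members, Nfkb2, Rel, Nfkbia and Tnfaip3, and in 8.49% of 32544 mouse windows of the same length. The 250 bases before the start are printed for 4 windows with a κB match and for Traf1, which holds none, 5′ to 3′, with κB matches in capitals. Overlapping matches share 1 run of capitals in Nfkb2 and in Rel.
Nfkb2 (chr19:46304487-46304736, plus strand): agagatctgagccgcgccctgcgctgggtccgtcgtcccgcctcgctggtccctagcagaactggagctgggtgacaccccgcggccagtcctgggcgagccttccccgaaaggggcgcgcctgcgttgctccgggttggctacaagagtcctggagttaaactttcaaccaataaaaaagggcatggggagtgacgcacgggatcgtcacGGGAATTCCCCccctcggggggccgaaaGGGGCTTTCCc
Rel (chr11:23770970-23771219, minus strand): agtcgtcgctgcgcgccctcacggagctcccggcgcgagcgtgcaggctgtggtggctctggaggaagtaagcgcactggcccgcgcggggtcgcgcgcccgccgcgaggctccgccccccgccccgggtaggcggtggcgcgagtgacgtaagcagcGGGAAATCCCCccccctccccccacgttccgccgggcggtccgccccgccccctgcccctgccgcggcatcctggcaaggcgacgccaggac
Nfkbia (chr12:55492648-55492897, minus strand): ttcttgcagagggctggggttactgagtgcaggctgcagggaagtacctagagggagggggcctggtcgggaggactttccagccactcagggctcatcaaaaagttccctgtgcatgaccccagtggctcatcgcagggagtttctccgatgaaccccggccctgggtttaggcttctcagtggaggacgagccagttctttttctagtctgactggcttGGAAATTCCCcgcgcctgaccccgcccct
Tnfaip3 (chr10:19015411-19015660, minus strand): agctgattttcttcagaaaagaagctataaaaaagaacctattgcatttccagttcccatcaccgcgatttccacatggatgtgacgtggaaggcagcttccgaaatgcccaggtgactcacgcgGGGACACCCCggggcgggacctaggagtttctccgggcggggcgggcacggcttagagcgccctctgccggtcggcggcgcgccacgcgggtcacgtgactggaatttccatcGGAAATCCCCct
Traf1 (chr2:34961773-34962022, minus strand): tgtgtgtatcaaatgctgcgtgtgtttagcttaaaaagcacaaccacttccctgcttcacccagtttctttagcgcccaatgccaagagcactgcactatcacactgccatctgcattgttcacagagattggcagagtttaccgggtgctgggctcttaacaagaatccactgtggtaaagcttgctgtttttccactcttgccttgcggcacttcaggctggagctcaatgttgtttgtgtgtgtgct
The nearest match began 11 bases before the start of Nfkb2, 91 bases before Rel, 29 bases before Nfkbia and 12 bases before Tnfaip3. A match describes the letters of the window and is not a measurement of binding.

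The members were read with 1 probe per gene. On mouse build mm8, as deposited, the probes lay at chr3:135522133-135522194 for Nfkb1, chr19:46364967-46365106 for Nfkb2, chr11:23641729-23641743 for Rel and chr7:18764895-18764954 for Relb. The IκB probes lay at chr12:56408088-56408583 for Nfkbia and chr16:55736929-55736988 for Nfkbiz. Those of the regulators lay at chr10:18690604-18690663 for Tnfaip3, chr2:34765371-34765430 for Traf1, chr10:119545003-119545062 for Irak3 and chr9:7849394-7849453 for Birc3. Whether they lie in coding sequence or in untranslated parts was not analysed here. The Rel probe was well above background on 27 of 36 arrays, the Nfkbiz probe on 35 and each of the others on 36.

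Across the 12 groups, 7 of the 10 members had their highest mean in M1. Relb and Nfkbia were highest in Mreg with LPS, and Rel was highest in monocytes. The widest range belonged to Traf1, an adaptor of TNF-family receptors, with a mean log2 level of 6.62 in M1 and -2.02 in Mreg without IFN-γ, a span of 399-fold. Next came Nfkbiz, the nuclear IκB protein that acts as a co-activator of late inflammatory genes such as Il6, with 2.73 in M1 and -4.34 in unsorted Mreg, a span of 134-fold. The narrowest was Nfkb1, the precursor of a DNA-binding subunit that lacks a transactivation domain, with 3.34 in M1 and 0.87 in Mreg without IFN-γ, a span of 5.57-fold. Every member therefore varied over the panel, but neighbours in the order of group means often overlapped, in 4 (Birc3) to 9 (Rel and Nfkbiz) of 11 neighbouring pairs.

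**Figure D1:**
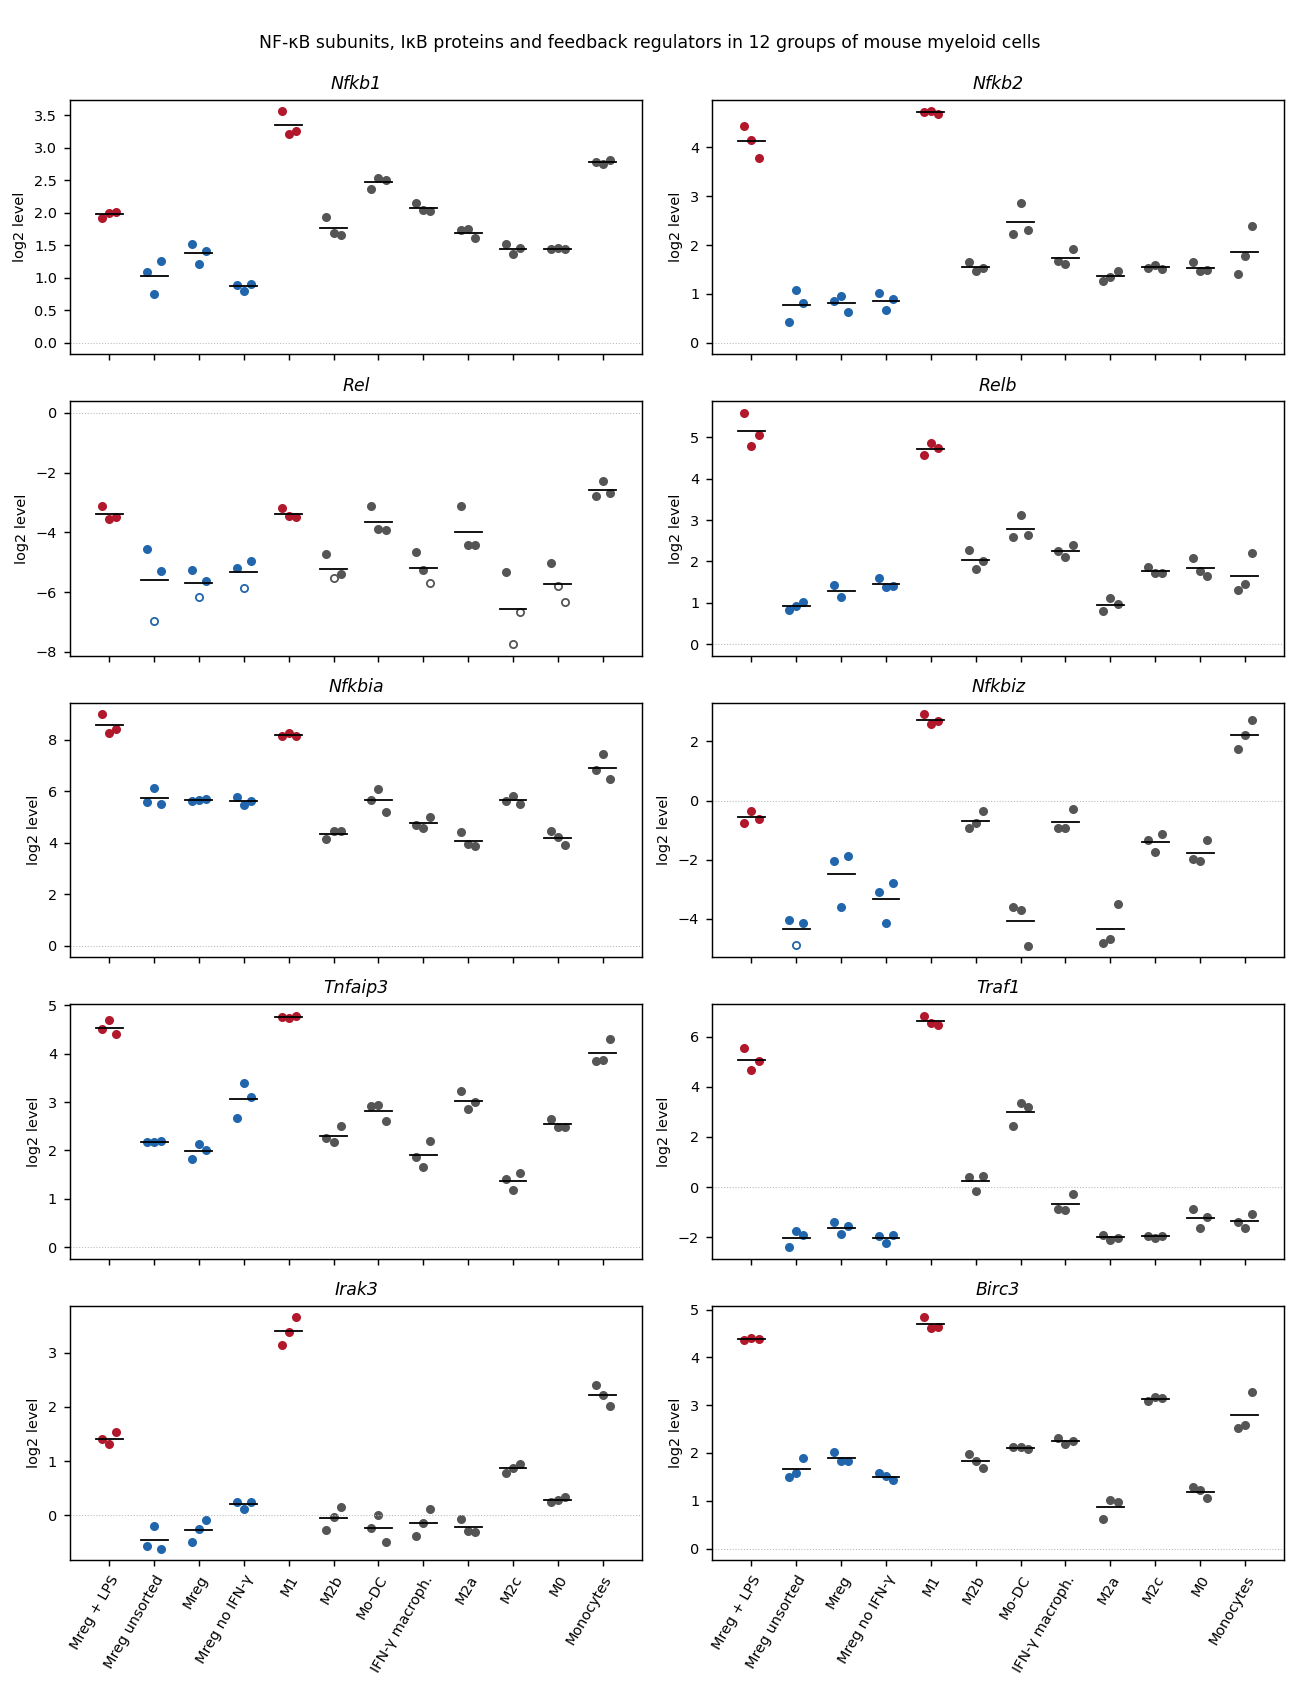
Log2 level relative to the array's 75th percentile (vertical axis) of each member in the 12 groups (horizontal axis). Points are single arrays, open where the probe was not well above background, and bars are group means; red marks the groups with LPS and blue the other Mreg groups. Both LPS groups stand above their partners without LPS for every gene, and Nfkbiz in Mreg with LPS lies far below M1, at a mean of -0.57 against 2.73.

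All 10 members were higher with LPS in Mreg, and all 10 were higher with LPS in IFN-γ macrophages. Of all genes tested, 31.9% were called higher and 57.4% were called either way with LPS in Mreg, and 27.9% higher and 51.2% either way in IFN-γ macrophages. The median log2 difference of the members was 2.52 in Mreg and 2.92 in IFN-γ macrophages, against 0.17 and 0.12 for all genes. For every member the arrays with LPS lay above those without it in both cultures, a separation in either direction that 58.9% of all genes showed in Mreg and 64.5% in IFN-γ macrophages. IFN-γ was present in all 4 groups, so the comparison adds LPS to IFN-γ. The Mreg groups shared slides, and every member was higher with LPS on each slide that measured it (2 for Relb, 3 for the others), by 6.95, 6.53 and 6.58 for Traf1 and by 1.29, 3.25 and 1.23 for Nfkbiz. M1 and IFN-γ macrophages lay on different slides, and all 10 calls held with the slide as a random block. That fit allows for spread between slides but cannot separate LPS from a difference between these sets of slides.

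Among the subunits, Nfkb2 and Relb, the partners of the alternative NF-κB branch, had the largest differences in both cultures. Nfkb2 had log2 levels of 4.44, 4.16 and 3.79 in Mreg with LPS, against 0.85, 0.97 and 0.64 in Mreg. In the second culture they were 4.73, 4.73 and 4.69 in M1, against 1.67, 1.60 and 1.91 in IFN-γ macrophages. No array of one condition reached into the other, and the differences were 3.31 ± 0.19 (SE, n = 3 arrays per group, adjusted p = 1.2e-13) in Mreg and 2.99 ± 0.19 (adjusted p = 1.3e-12) in IFN-γ macrophages. Relb had 5.59, 4.80 and 5.07 in Mreg with LPS, against 1.44 and 1.14 in Mreg, where the third array had no usable spot (n = 2). It had 4.57, 4.88 and 4.74 in M1, against 2.26, 2.11 and 2.40 in IFN-γ macrophages. Relb was thus 14.6-fold higher with LPS in Mreg and 5.54-fold higher in IFN-γ macrophages, from a lower level without LPS and to levels that overlapped between the 2 LPS groups.

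Nfkb1 had the smallest difference of the 10 in both cultures. Its levels were 1.92, 2.00 and 2.01 in Mreg with LPS, against 1.51, 1.22 and 1.42 in Mreg, and 3.56, 3.21 and 3.26 in M1, against 2.15, 2.05 and 2.02 in IFN-γ macrophages. The difference was 0.59 ± 0.11 in Mreg (adjusted p = 3.0e-05) and 1.27 ± 0.11 in IFN-γ macrophages (adjusted p = 1.6e-10). Mreg with LPS lay just below the Nfkb1 level of IFN-γ macrophages without LPS (highest array 2.01, against a lowest of 2.02), a difference that was not tested. On the other Nfkb1 probes the arrays of these groups overlapped. The mean of its 4 probes gave 0.52 in Mreg with adjusted p = 0.17. Taken that way, Nfkb1 also lost its call with IFN-γ in Mreg (adjusted p = 0.34) and in IFN-γ macrophages (0.14), between the cultures without IFN-γ (0.12) and in Mo-DC (0.94). Rel, the c-Rel subunit of activated lymphoid and myeloid cells, was near background without LPS, and its differences of 2.31 ± 0.52 in Mreg (adjusted p = 4.7e-04) and 1.82 ± 0.52 in IFN-γ macrophages (adjusted p = 0.0047) rest partly on signal below background. Under normexp background correction the Rel values were 0.89 in Mreg (adjusted p = 0.018) and 0.72 in IFN-γ macrophages (adjusted p = 0.066).

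Both IκB proteins were higher with LPS in both cultures. Nfkbia, the IκBα protein that NF-κB induces to end its own nuclear phase, had 8.98, 8.27 and 8.41 in Mreg with LPS, against 5.61, 5.66 and 5.68 in Mreg. It had 8.14, 8.24 and 8.16 in M1, against 4.68, 4.55 and 5.00 in IFN-γ macrophages. These are rises of 2.91 ± 0.23 and 3.43 ± 0.23 on the log2 scale (adjusted p = 3.2e-11 and 2.1e-12), or 7.50-fold and 10.8-fold. Nfkbiz had -0.74, -0.34 and -0.63 in Mreg with LPS, against -2.03, -3.59 and -1.86 in Mreg. It had 2.91, 2.59 and 2.69 in M1, against -0.93, -0.91 and -0.29 in IFN-γ macrophages. Nfkbiz was 3.80-fold higher with LPS in Mreg (adjusted p = 3.5e-04) and 10.8-fold higher in IFN-γ macrophages (adjusted p = 1.5e-07), and the Mreg arrays with LPS lay within the range of the IFN-γ macrophages without LPS.

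Among the regulators, Traf1 showed the largest change of any member in both cultures. It had 5.55, 4.65 and 5.02 in Mreg with LPS, against -1.40, -1.88 and -1.56 in Mreg, and 6.83, 6.55 and 6.48 in M1, against -0.86, -0.91 and -0.28 in IFN-γ macrophages. The gene was therefore 103-fold higher with LPS in Mreg (6.69 ± 0.25, adjusted p = 6.2e-17) and 157-fold higher in IFN-γ macrophages (7.30 ± 0.25, adjusted p = 2.0e-17). Irak3, also called IRAK-M, a kinase-dead relative of the IRAK kinases that dampens Toll-like receptor signals, had 1.40, 1.31 and 1.53 in Mreg with LPS, against -0.48, -0.25 and -0.09 in Mreg. It had 3.15, 3.37 and 3.65 in M1, against -0.37, -0.14 and 0.12 in IFN-γ macrophages. The groups without LPS overlapped between the cultures, whereas those with LPS did not. Irak3 was 3.22-fold higher in Mreg (adjusted p = 3.5e-10) and 11.5-fold higher in IFN-γ macrophages (adjusted p = 8.6e-16).

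Tnfaip3, a ubiquitin-editing enzyme that removes signalling chains from the pathway, and Birc3, a ubiquitin ligase of the TNF receptor complex, were also higher with LPS in both cultures. Tnfaip3 was 5.88-fold higher in Mreg with LPS and 7.23-fold higher in M1. Its levels were 4.50, 4.71 and 4.42 in Mreg with LPS, against 1.83, 2.13 and 2.00 in Mreg. Birc3 was 5.60-fold higher in Mreg with LPS and 5.45-fold higher in M1, and its levels were 4.36, 4.40 and 4.38 in Mreg with LPS, against 2.02, 1.83 and 1.84 in Mreg. In the second culture Tnfaip3 had 4.76, 4.75 and 4.78 in M1, against 1.87, 1.67 and 2.19 in IFN-γ macrophages. Birc3 had 4.84, 4.62 and 4.63 in M1, against 2.31, 2.19 and 2.26 in IFN-γ macrophages. For both genes the groups with LPS were well apart from those without it.

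The difference between the 2 LPS responses was tested as an interaction, Mreg minus IFN-γ macrophages. It was called for 3 of the 10 members, against 35.0% of all genes, so the share of members is near the background. The LPS response of Irak3 was smaller in Mreg by 1.83 ± 0.21 on the log2 scale (adjusted p = 2.7e-07), and its 2 other probes gave -2.09 and -1.99. That of Nfkb1 was smaller by 0.68 ± 0.15 (adjusted p = 8.9e-04). Relb responded more strongly in Mreg, by 1.40 ± 0.30 (adjusted p = 6.2e-04, n = 2 in Mreg). The estimate for Nfkbiz was -1.51 ± 0.60 with adjusted p = 0.052, and the fit with the series number as a block gave adjusted p = 0.028. It was called under 3 of 9 alternatives, most clearly under normexp (-1.84, adjusted p = 4.1e-04), with values from -1.84 to -0.995. For Tnfaip3 the difference was -0.30 with a 95% interval from -0.77 to 0.17, for Nfkbia -0.53 (-1.19 to 0.14) and for Traf1 -0.61 (-1.32 to 0.10). For Birc3 the difference was 0.04 with a 95% interval from -0.37 to 0.44, and for Nfkb2 it was 0.32 with an interval from -0.24 to 0.89. The Nfkb1 difference was -0.51 with adjusted p = 0.058 on the arrays of the second scan day, and -0.69 with adjusted p = 0.26 as the mean of its 4 probes.

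**Figure D2:**
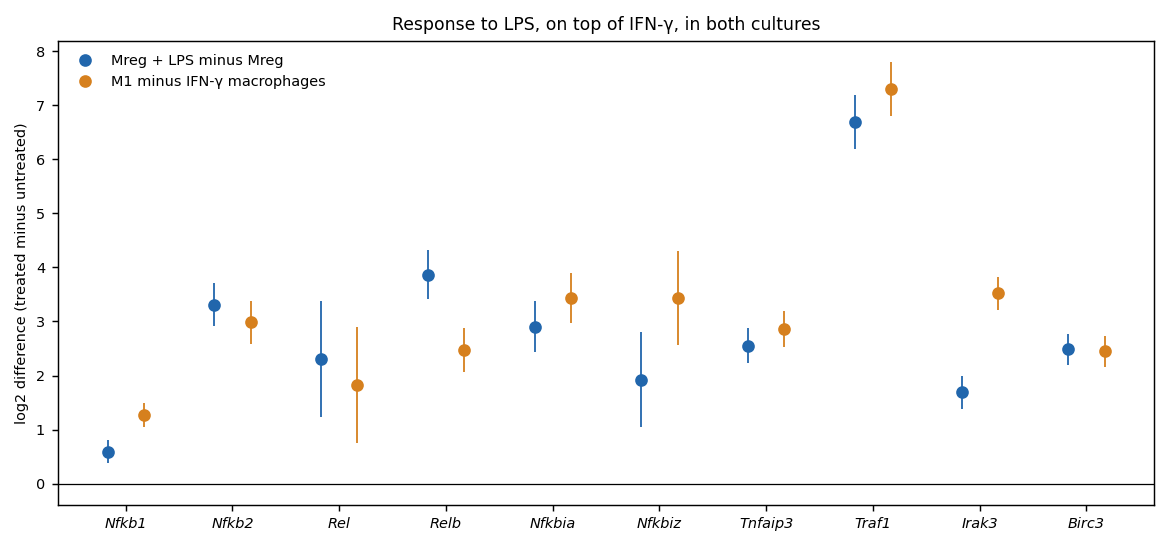
Log2 difference made by LPS on top of IFN-γ (vertical axis) for each member (horizontal axis), in Mreg (blue) and in IFN-γ macrophages (orange). Points are estimates from 3 arrays per group (2 for Relb in Mreg), lines are 95% confidence intervals and filled points passed the test. All 20 points lie above 0; the intervals are apart for Nfkb1, Relb and Irak3, and Relb is the gene of these 3 with the larger response in Mreg.

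Other genes of the pathway changed in the same comparisons. Of all genes tested, 31.9% were called higher and 57.4% either way in Mreg, and 27.9% higher and 51.2% either way in IFN-γ macrophages. These shares are the background for the counts of every list under LPS. Of the 5 other Rel and IκB proteins, 4 were higher with LPS in Mreg and 5 in IFN-γ macrophages, with none lower in either. Nfkbib, another cytoplasmic inhibitor, was higher by 3.02 in Mreg and 2.40 in IFN-γ macrophages, and Nfkbie by 2.72 and 3.68. Of 23 kinases and adaptors, 14 were higher and 3 lower in Mreg, and 15 higher and 1 lower in IFN-γ macrophages. Malt1, a scaffold and protease of the CARD pathway, was higher by 4.58 in Mreg and 4.45 in IFN-γ macrophages.

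Among 13 other brakes, 7 were higher and 4 lower in Mreg, and 9 higher and 4 lower in IFN-γ macrophages. The ribonuclease Zc3h12a was higher by 3.17 and 3.42 and the adaptor Tnip1, a partner of Tnfaip3, by 2.90 and 3.12. Of 10 receptors, 6 were higher and 3 lower in Mreg, and 5 higher and 2 lower in IFN-γ macrophages. The costimulatory receptor Cd40 was higher by 6.96 in Mreg and 4.73 in IFN-γ macrophages. Tlr4 was lower by 3.12 in Mreg and by 0.88 in IFN-γ macrophages. Of 20 textbook target genes tested, 18 were higher in Mreg and 19 in IFN-γ macrophages, with none lower. The cytokine gene Il12b was at least 28.2-fold higher in Mreg with LPS, and Il1a at least 255-fold higher in M1, each against a group in which no array was well above background. An adjusted p beside such a bound (1.1e-10 and 1.3e-09) tests the fitted difference and not the bound.

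IFN-γ without LPS changed 4 members in each culture. Against cells without IFN-γ, 2 members were higher and 2 lower in Mreg, where 20.4% of all genes were called, and 2 were higher and 2 lower in IFN-γ macrophages, where 22.2% were. These were the same 4 genes in the same directions: Nfkb1 and Birc3 were higher, and Tnfaip3 and Irak3 were lower. The Mreg groups shared slides, whereas IFN-γ macrophages and M0 lay on different slides. In the second culture, IFN-γ and a difference between the sets of slides therefore cannot be told apart. The comparison in the second culture shares the IFN-γ macrophages with the LPS comparison, and the one in Mreg shares the Mreg arrays. The same M0 arrays serve the IFN-γ, IL-4 and dexamethasone comparisons and the comparison with monocytes, and the IFN-γ macrophages serve those with M2b and Mo-DC.

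Tnfaip3 had 1.83, 2.13 and 2.00 in Mreg, against 2.67, 3.40 and 3.10 in Mreg without IFN-γ. It had 1.87, 1.67 and 2.19 in IFN-γ macrophages, against 2.66, 2.48 and 2.49 in M0. The groups did not overlap in either culture, and Tnfaip3 fell by 1.07 ± 0.16 in Mreg (adjusted p = 1.6e-05, with -0.84, -1.27 and -1.10 on the 3 shared slides) and by 0.63 ± 0.16 in IFN-γ macrophages (adjusted p = 0.0042, and 0.089 on the arrays of the second scan day). Nfkb1 had 1.51, 1.22 and 1.42 in Mreg, against 0.89, 0.80 and 0.90 in Mreg without IFN-γ, and 2.15, 2.05 and 2.02 in IFN-γ macrophages, against 1.44, 1.46 and 1.44 in M0. It was higher by 0.52 ± 0.11 in Mreg (adjusted p = 7.4e-04) and by 0.63 ± 0.11 in IFN-γ macrophages (adjusted p = 6.1e-05). Birc3 was higher by 1.06 ± 0.14 in IFN-γ macrophages (adjusted p = 1.6e-06), where it had 2.31, 2.19 and 2.26, against 1.28, 1.22 and 1.06 in M0. In Mreg its difference of 0.39 was close to the threshold (adjusted p = 0.047) and did not pass when any 1 of the 6 arrays was left out, with adjusted p from 0.06 to 0.189.

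Irak3 fell by 0.48 in Mreg (adjusted p = 0.025) and by 0.42 in IFN-γ macrophages (adjusted p = 0.047). Its call ended without Mreg replicate 1, Mreg without IFN-γ replicate 1 or Mreg without IFN-γ replicate 3 in Mreg (highest adjusted p = 0.158), and in the second culture without M0 replicate 1, 2 or 3 or IFN-γ macrophages replicate 1 or 2 (highest adjusted p = 0.259), and under 6 of the 9 other alternatives, the slide as a random block among them (adjusted p = 0.066, and up to 0.291 over the alternatives). Nfkbiz was 0.84 in Mreg (adjusted p = 0.18) and 1.07 in IFN-γ macrophages (adjusted p = 0.076), and with the series number as a block the second value passed (adjusted p = 0.041). Without Mreg replicate 2, the lowest of its group, Nfkbiz was called in Mreg as well, at 1.39 (adjusted p = 0.018). Nfkb2, Rel, Relb, Nfkbia and Traf1 were not called in either culture, with differences between -0.35 and 0.56.

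No member differed between the 2 IFN-γ responses in the interaction test with limma, where 1.65% of all genes did. At an unadjusted p below 0.05 there was 1 such member, Birc3, with a difference of -0.67 (interval -1.08 to -0.26, adjusted p = 0.087). Using only the 4 groups compared, its adjusted p was 0.021.

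**Figure D3:**
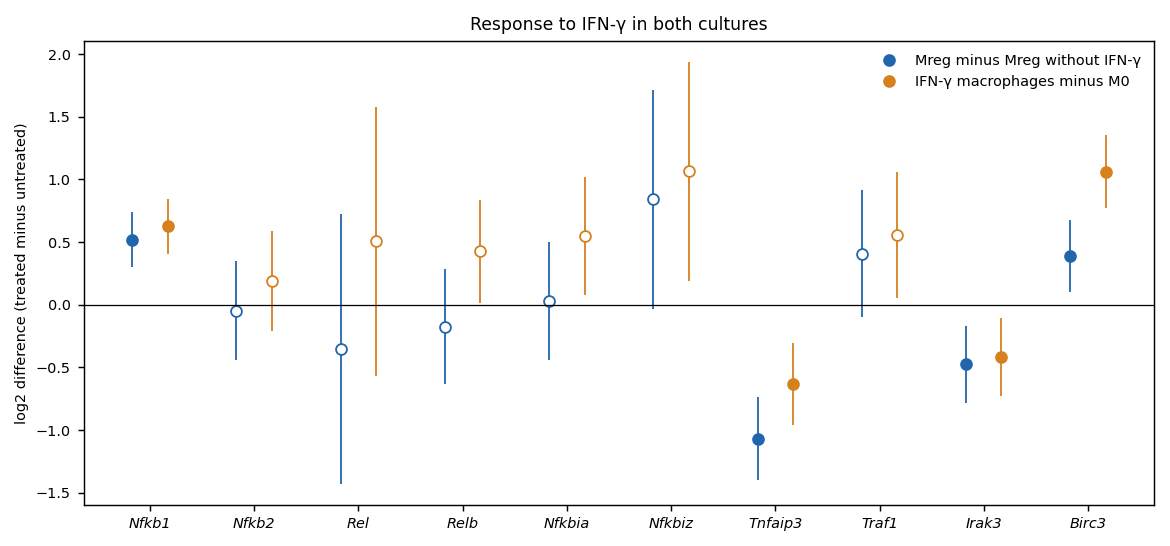
Log2 difference made by IFN-γ (vertical axis) for each member (horizontal axis), in Mreg against Mreg without IFN-γ (blue) and in IFN-γ macrophages against M0 (orange). Points are estimates from 3 arrays per group (2 for Relb in Mreg), lines are 95% intervals and filled points passed the test. In both cultures Nfkb1 and Birc3 lie above 0, and Tnfaip3 and Irak3 lie below 0, with Tnfaip3 at -1.07 and -0.63.

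In the rest of the pathway, none of the 5 other Rel and IκB proteins was called with IFN-γ in Mreg, and 3 were higher in IFN-γ macrophages, among them Nfkbie at 0.89 and Bcl3, a nuclear IκB protein, at 0.88. The deubiquitinase Cyld was higher by 0.77 and 0.82, and Otulin, which removes linear ubiquitin, was lower by 0.56 in each culture. The LPS co-receptor Cd14 was lower by 1.91 and 2.43. Ikbkg, the regulatory subunit of the IκB kinase, was lower by 0.78 and 0.75. Among the 20 targets tested, 6 were higher and 4 lower in Mreg and 8 higher and 2 lower in IFN-γ macrophages.

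The Mreg culture had lower Nfkb1, Nfkb2, Nfkbiz and Traf1 than the second culture under each stimulus, and higher Nfkbia without LPS. With IFN-γ in both, 1 member was higher and 5 were lower in Mreg than in IFN-γ macrophages (28.0% of all genes called). Without IFN-γ in either, 2 were higher and 4 lower in Mreg than in M0 (30.9% called). With IFN-γ and LPS in both, none was higher and 5 were lower in Mreg than in M1 (54.4% called, 25.1% lower). The arrays of the 2 cultures lay on different slides, so culture and a difference between these sets of slides cannot be told apart. No member's call in these 3 comparisons changed with the slide as a random block. That fit allows for spread between slides but cannot separate culture from the sets of slides. Markers of Ly6C-high monocytes moved with culture: summed, they reached 47.8 to 206 times the 75th percentile in Mreg and 275 to 296 in IFN-γ macrophages, 0.472 to 0.880 in Mreg without IFN-γ and 11.9 to 32.7 in M0, and 58.7 to 226 in Mreg with LPS and 276 to 339 in M1. Plac8 had a mean log2 level of -2.47 in Mreg and 5.68 in IFN-γ macrophages, and Ccr2 had -1.91 in Mreg and 1.07 in IFN-γ macrophages. Of the neutrophil markers, S100a8 was higher in Mreg (3.21, against -0.18 in IFN-γ macrophages). Mpo went the other way (-4.91 against -1.78), as did Ltf (-7.20, above background on no Mreg array, against -4.45). Elane, Camp and Ngp were above background on no Mreg array and on at most 1 array of IFN-γ macrophages. The part of all these markers in the results was not tested.

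Nfkbia was higher in Mreg by 0.90 ± 0.23 (adjusted p = 0.0036, and 0.051 on the arrays of the second scan day) with IFN-γ. It was higher by 1.42 ± 0.23 (adjusted p = 2.4e-05) without IFN-γ, where its levels were 5.79, 5.47 and 5.61 in Mreg without IFN-γ, against 4.45, 4.22 and 3.92 in M0. With LPS added, the value was 0.38, with adjusted p = 0.17. Nfkb1 was lower in Mreg in all 3 comparisons, by 0.69 with IFN-γ, 0.58 without it and 1.36 with IFN-γ and LPS (adjusted p = 1.8e-05, 1.3e-04 and 3.4e-11). Nfkb2 was lower by 0.91, 0.67 and 0.59 in the same order. Leaving out Mreg without IFN-γ replicate 2 took the second to -0.58 (adjusted p = 0.053), and leaving out Mreg with LPS replicate 3 took the third to -0.42 (adjusted p = 0.095). Relb was lower by 0.97 with IFN-γ (adjusted p = 0.0016, n = 2 in Mreg). It was -0.37 without IFN-γ (adjusted p = 0.17) and 0.42 with LPS added (adjusted p = 0.076, and 0.60 with adjusted p = 0.02 without Mreg with LPS replicate 2).

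Nfkbiz was lower in Mreg in each setting, by 1.79 ± 0.42 with IFN-γ, 1.56 ± 0.42 without it and 3.30 ± 0.42 with IFN-γ and LPS (adjusted p = 0.0021, 0.0056 and 2.1e-07). The last is a 9.86-fold difference with no overlap between arrays. Without IFN-γ, the Nfkbiz value was -1.16 (adjusted p = 0.062) when Mreg without IFN-γ replicate 2 was left out, and -0.67 (adjusted p = 0.074) under normexp. Traf1 was lower by 0.93, 0.78 and 1.55, and Irak3 was lower only under LPS in this test, by 1.97 ± 0.15 (adjusted p = 2.3e-11), with -0.14 and -0.08 in the comparisons with IFN-γ and without it. Without IFN-γ, the Traf1 call ended without M0 replicate 1 (adjusted p = 0.1) or Mreg without IFN-γ replicate 2 (adjusted p = 0.073), and under normexp (-0.52, adjusted p = 0.13) and on the second scan day (adjusted p = 0.084). Tnfaip3 was higher by 0.52 in Mreg without IFN-γ (adjusted p = 0.015), a call that ended without M0 replicate 2, M0 replicate 3 or Mreg without IFN-γ replicate 2 (highest adjusted p = 0.141), or with the compared groups alone (adjusted p = 0.099). Birc3 was called in none of the 3.

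Some receptors and adaptors upstream also differed between cultures. Of 23 kinases and adaptors, 3 were higher and 4 lower with IFN-γ, and 4 higher and 3 lower without it. With IFN-γ and LPS, 10 were higher and 10 lower. Of 10 receptors, 2 were higher and 3 lower, 1 higher and 4 lower, and 2 higher and 6 lower, in the same order. The shares of all genes called were 28.0%, 30.9% and 54.4%. With IFN-γ and without it, kinases and adaptors were thus called about as often as all genes. Myd88, the adaptor of most Toll-like receptors, was lower in Mreg by 1.06 with IFN-γ, 1.15 without it and 1.60 with IFN-γ and LPS. Tlr2 was lower by 3.27, 1.86 and 1.36, and Nfkbie was lower by 1.39 with IFN-γ and 2.36 with IFN-γ and LPS. Of the 20 targets tested, 3 were higher and 10 lower with IFN-γ, 4 higher and 6 lower without it, and 2 higher and 10 lower with IFN-γ and LPS.

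Dexamethasone, the synthetic glucocorticoid, raised 3 members and lowered 2 in the second culture (20.6% of all genes called). Birc3 had 3.08, 3.17 and 3.15 in M2c, against 1.28, 1.22 and 1.06 in M0. Nfkbia had 5.63, 5.81 and 5.50 in M2c, against 4.45, 4.22 and 3.92 in M0. Birc3 was 3.85-fold higher (1.95 ± 0.14, adjusted p = 9.7e-11) and Nfkbia 2.73-fold higher (1.45 ± 0.23, adjusted p = 4.0e-05), with no overlap for either. M2c and M0 lay on different slides, and the 5 calls held with the slide as a random block. That fit cannot separate dexamethasone from a difference between these sets of slides. Nfkbia is a known glucocorticoid-induced gene in several cell types. Irak3 was higher by 0.58 ± 0.15 (adjusted p = 0.0065).

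Tnfaip3 had 1.40, 1.18 and 1.53 in M2c, against 2.66, 2.48 and 2.49 in M0, and fell by 1.17 ± 0.16 (adjusted p = 6.0e-06). Traf1 was lower by 0.73 (adjusted p = 0.035), a call that only the omission of M0 replicate 2 left in place, with adjusted p up to 0.189 for the others. No subunit was called: with the probe used for each gene, Nfkb1, Nfkb2 and Relb had differences of at most 0.06 in size, and the interval of Nfkb2 ran from -0.39 to 0.41. The 3 other Nfkb1 probes gave 0.42, 1.01 and 0.42, none called, and the mean of all 4 gave 0.46. Rel was -0.86 (adjusted p = 0.29), on signal near background. In the wider pathway Tnf, a target, was lower by 2.46 and Ccl4 lower by 1.53, with 2 of the 20 targets higher and 2 lower. The receptor Tlr2 was higher by 1.47 and Cd40 lower by 1.46.

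IL-4, the cytokine of alternative activation, gave 2 higher and 4 lower members (12.5% of all genes called), and most of these calls were close to the threshold. Nfkbiz had -4.82, -4.68 and -3.49 in M2a, against -1.96, -2.03 and -1.33 in M0. It was 5.89-fold lower in M2a (-2.56 ± 0.42, adjusted p = 1.3e-04, and -1.40 with adjusted p = 4.1e-04 under normexp), and lower on all 3 shared slides, by 2.86, 2.65 and 2.17. Relb had 0.79, 1.11 and 0.97 in M2a, against 2.07, 1.77 and 1.66 in M0, and was lower by 0.88 ± 0.20 (adjusted p = 0.0035, and 0.097 on the arrays of the second scan day). Irak3 (-0.51, adjusted p = 0.025), Traf1 (-0.76, adjusted p = 0.04), Tnfaip3 (0.49, adjusted p = 0.044) and Rel (1.72, adjusted p = 0.028) each lost the call when single arrays of M2a or M0 were left out, with adjusted p reaching 0.0832, 0.196, 0.224 and 0.202. Rel had -3.13, -4.44 and -4.42 in M2a, against -5.01, -5.79 and -6.35 in M0, where 2 of 3 arrays were below background, and its direction turned under another background correction. The dendritic cell markers summed to 118 to 224 times the 75th percentile in M2a and 27.4 to 52.9 in M0, sums carried by Itgax (mean log2 level 7.23 in M2a and 5.12 in M0). Zbtb46 (-3.95 in M2a and -5.05 in M0) and Ccr7 (-3.82 in M2a and -6.61 in M0, above background on no M0 array) were also higher in M2a by their means. Flt3 (-5.15 in M2a and -4.58 in M0) and Dpp4 (-5.59 in M2a and -4.61 in M0) were lower in M2a by their means. Cd209a was above background on no array, and the part of dendritic cells in the result was not tested. Marcksl1, one of the targets, was lower by 3.05, and Ier3 was higher by 2.27.

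Immunoglobulin coating changed 1 member, where 3.94% of all genes were called and 2.16% were called higher. Traf1 had 0.40, -0.16 and 0.46 in M2b, against -0.86, -0.91 and -0.28 in IFN-γ macrophages. The difference was 0.91 ± 0.25 (adjusted p = 0.032), higher on all 3 shared slides, by 1.26, 0.75 and 0.73. It did not pass without IFN-γ macrophages replicate 1 or 2, or M2b replicate 1 or 3 (adjusted p from 0.0983 to 0.183 for these). The other members had differences between -0.42 and 0.40. In the lists, Ltbr, a receptor of the alternative branch, was lower by 0.87 and the target Cflar higher by 0.61, with no other call.

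Mo-DC had more of most members than IFN-γ macrophages and much less Nfkbiz. Of the 10, 7 were higher and 1 lower, where 47.5% of all genes were called. Traf1 had 2.45, 3.34 and 3.18 in Mo-DC, against -0.86, -0.91 and -0.28 in IFN-γ macrophages, and was 12.8-fold higher (3.67 ± 0.25, adjusted p = 2.7e-12). Nfkbiz had -3.60, -3.71 and -4.90 in Mo-DC, against -0.93, -0.91 and -0.29 in IFN-γ macrophages, and was 10.3-fold lower (adjusted p = 2.8e-07). Both differences had 1 direction on all 3 shared slides. Under normexp background correction the Nfkbiz difference was -1.80 (adjusted p = 2.2e-06).

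All 4 subunits were called higher in Mo-DC with the main probes. Nfkb1 was higher by 0.39, Nfkb2 by 0.74, Rel by 1.57 and Relb by 0.52, with adjusted p of 0.0033, 0.0025, 0.015 and 0.033. The 3 other Nfkb1 probes gave -0.12, -0.096 and -0.021, and the mean of all 4 gave 0.039. Rel was not called under 3 of 9 alternatives (0.62 with adjusted p = 0.12 under normexp) and Relb under 2 (highest adjusted p = 0.057). The Rel call ended without Mo-DC replicate 1 (adjusted p = 0.073) or IFN-γ macrophages replicate 3 (adjusted p = 0.071), and the Relb call without Mo-DC replicate 2 (adjusted p = 0.19) or IFN-γ macrophages replicate 1 or 2 (adjusted p = 0.066 and 0.11). Nfkbia was higher by 0.89 and Tnfaip3 by 0.92 (adjusted p = 0.0021 and 3.2e-05), while Irak3 (-0.11) and Birc3 (-0.14) were not called. The 6 dendritic cell markers summed to 259 to 281 times the 75th percentile in Mo-DC and 6.88 to 20.2 in IFN-γ macrophages. These sums were carried by Itgax (mean log2 level 7.94 in Mo-DC and 3.49 in IFN-γ macrophages), while Flt3 had -4.78 and -5.28. In each group 5 of the 6 were above background on all 3 arrays, and Cd209a on none. The macrophage markers summed to 132 to 186 in Mo-DC and 611 to 683 in IFN-γ macrophages. Growth factor, IL-4 and cell type differ together here, and their part in the result was not tested. Malt1 was higher by 3.47 in Mo-DC, and 12 of the 20 targets were higher and 3 lower.

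M0 macrophages had less of 7 members than the monocytes they came from, and none was higher (63.4% of all genes called, 33.2% lower). Nfkbiz had -1.96, -2.03 and -1.33 in M0, against 1.73, 2.22 and 2.73 in monocytes, and was 16.0-fold lower (adjusted p = 4.6e-09). Nfkbia had 4.45, 4.22 and 3.92 in M0, against 6.84, 7.45 and 6.45 in monocytes, and was 6.57-fold lower (adjusted p = 5.3e-11). Irak3 was lower by 1.92, Birc3 by 1.61, Tnfaip3 by 1.47 and Nfkb1 by 1.33 (adjusted p between 1.3e-11 and 8.0e-09). Rel was lower by 3.14 (adjusted p = 7.9e-06), with 2 of 3 M0 arrays below background, and by 0.59 (adjusted p = 0.11) under another background correction.

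Each of these 7 was lower on all 3 shared slides. Nfkb2, Relb and Traf1 were not called, with -0.32, 0.19 and 0.12. Without monocytes replicate 1 Nfkb2 was called at -0.55 (adjusted p = 0.018), and without monocytes replicate 3 Relb was called at 0.46 (adjusted p = 0.038). The summed neutrophil, T and NK cell, erythroid, B cell and stromal markers move with this comparison, and their part in the result was not tested. In M0 the B cell markers summed to 1.00 to 1.06 and the stromal markers to 0.108 to 0.149. Of the T and NK cell markers, Cd3e went the other way, at -2.94 in monocytes and -2.59 in M0. The target Il6 was at least 291-fold lower in M0, where no array was well above background. Among the 5 other Rel and IκB proteins, all 5 were lower, with Nfkbid, a nuclear IκB protein, at -2.13.

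Unsorted Mreg differed from sorted Mreg in 2 members, both lower, where 5.36% of all genes were called lower and 6.67% higher. Nfkbiz had -4.02, -4.87 and -4.13 in unsorted Mreg, against -2.03, -3.59 and -1.86 in Mreg. The groups did not overlap, and Nfkbiz was lower by 1.84 ± 0.42 (adjusted p = 0.0057), with 1 unsorted array below background adjusted p = 0.053 without Mreg replicate 3, and -0.77 (adjusted p = 0.086) under normexp. Nfkb1 was lower by 0.35 (adjusted p = 0.032), but the arrays of the groups overlapped, the call ended without Mreg replicate 1, Mreg replicate 3 or unsorted Mreg replicate 2 (highest adjusted p = 0.253), and the mean of its 4 probes gave a value above 0. The other 8 members had differences from -0.41 to 0.19. B cell markers summed to 1.12 to 1.82 in unsorted Mreg and 0.383 to 0.913 in Mreg, and the monocyte marker Plac8 had a mean log2 level of 0.34 in unsorted Mreg and -2.47 in Mreg. Of 6 neutrophil markers, 5 had a higher mean in unsorted Mreg, among them Mpo (-2.63 in unsorted Mreg and -4.91 in Mreg), the only one of these 5 above background on all arrays of both groups. S100a8 had 2.67 in unsorted Mreg and 3.21 in Mreg, and the part of other cells in the result was not tested.

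**Figure D4:**
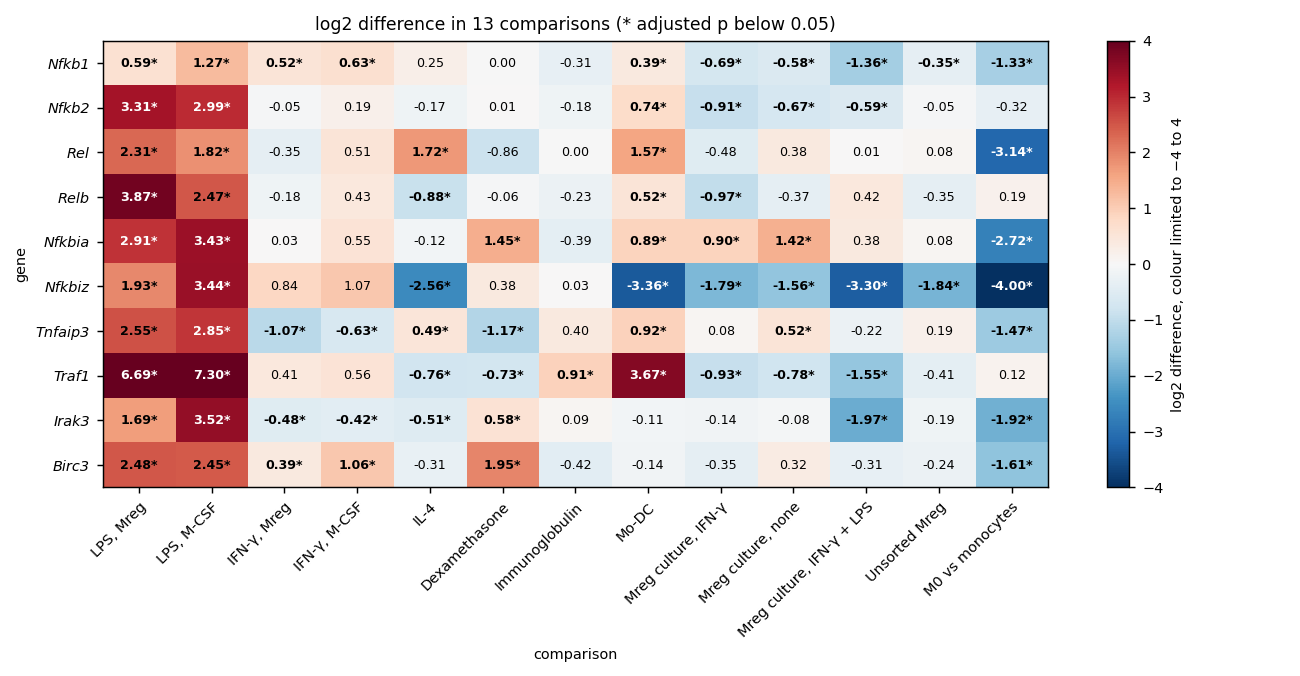
Log2 difference of each member (rows) in 13 comparisons (columns), with colour limited to 4 in size and an asterisk where the adjusted p was below 0.05. Names give the group whose level is compared with its partner, so "Mreg culture" is Mreg against the second culture under the same stimulus. Both LPS columns are red throughout, and Nfkbiz is blue in IL-4, Mo-DC, all 3 Mreg culture columns, unsorted Mreg and M0; Rel with IL-4 and Nfkb1 in unsorted Mreg turned sign under another setting.

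Across the 12 group means, Nfkb2, Relb and Traf1 varied most alike, with Pearson correlations of 0.96 for Nfkb2 and Relb, 0.95 for Nfkb2 and Traf1 and 0.95 for Relb and Traf1. Nfkbia was most like Birc3 (0.89) and Nfkbiz like Irak3 (0.86). The lowest of the 45 pairs was Rel with Birc3 (0.43). These values describe 12 group means, and the 2 LPS groups weigh on many of them. The LPS groups had the 2 highest means for Nfkb2, Relb, Nfkbia, Tnfaip3, Traf1 and Birc3. For Nfkb1, Nfkbiz and Irak3, M1 was highest and monocytes came next, and for Rel monocytes were highest.

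Outside the family, the genes most like each member over the same 12 means were chosen among 13916 named genes. They included Il1b (0.98), Triobp and Il6 for Nfkb1, and Tank (0.98) and Dnaja1 for Nfkb2. For Rel they were Sox10 (0.92), Sprtn and Olfr297, and for Relb Pfpl (0.98), Fabp2 and Inmt. Nfkbia was followed by Rab8a (0.96), Cebpb and Pnrc1, and Nfkbiz by Ccdc88b (0.95), Atxn7l3 and Ythdc1. Among the regulators, Tnfaip3 had Shroom1 (0.94), Kmt5a and Sec22b, and Traf1 had Foxp4 (0.97), Il12b and Ifnb1. Irak3 had Pde5a (0.95), Mefv and Zfp263, and Birc3 had Mocs1 (0.95), Pnrc1 and Slc8b1. Some of these, such as Pde5a (above background on 3 of 36 arrays) and Il12b (9 of 36), lay mostly at background.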

How the data were processed

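RNA of 36 samples was hybridised to 1-colour Agilent arrays. Per the file headers, the deposited scanner files give each spot's background-corrected intensity and its quality flags, made with Agilent Feature Extraction 10.5.1.1. A deposited series table holds the authors' log2 values of the same arrays and served as an alternative; its processing is not given in the sources used here.

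Levels are log2 intensity less the 75th percentile of its array, which ran from 320.0 to 648 across arrays. Spots flagged as non-uniform or outlying were set missing and repeat spots averaged. A probe was kept if at least 3 of 36 arrays called it well above background (26478 probes), and the brightest kept probe stood for its gene (17607). Using limma 3.58.1 (R 4.3.3), a mean was fitted for each group over all 36 arrays with lmFit and eBayes. Benjamini-Hochberg adjustment covered all genes within each of 15 comparisons, with a threshold of 0.05. A fold given as "at least" sets the bright group against the dim group. There, any signal under the lowest one called well above background on its array was raised to that value. Through a table of GRCm38.p6 genes, accessions gave names to 24375 probes and symbols to 8727, while 8072 kept the file's name. No spot was saturated.

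The members and gene lists were chosen with earlier results of these data known. The rule for named genes takes all members, up to 2 called rises and 2 called falls per list and comparison, and the 3 genes most like each member, clones and predicted genes skipped; not all are given in the text. Tried as alternatives were normexp background correction (offset 50), quantile normalization, unfiltered probes, probe means, the authors' table, a block for the series number, a random block for the slide, fits of the compared groups alone, and omission of each array. After seeing the data, a fit restricted to the second scan day was added. It holds only the samples numbered 2 and 3 of each group, so a call lost there may reflect fewer arrays.

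The 9 slides carried 4 arrays each. The labels number samples 1 to 3, and each slide carried samples of a single number. Samples numbered 1 were all scanned on the first scan day, and those numbered 2 and 3 on the second. Deviations of same-numbered arrays from their group means correlated above 0.1 in every pair (lowest 0.104) for both LPS, both IFN-γ, the IL-4, dexamethasone and immunoglobulin comparisons. The numbers were taken as a block in an alternative fit only, and the main fit had no block. Whether they pair samples or follow slide and scan day cannot be told apart. The number of arrays limits the precision. The fit was tested on simulated data. Figures were drawn with matplotlib 3.10.9 under Python 3.11.15.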

Additional observations from a re-analysis of the deposited data

Results flagged for a closer look

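The log2 response to LPS differed between Mreg and IFN-γ macrophages, by the interaction test, for 3 of 10 members and for other genes of the NF-κB lists, of which at most 2 rises and 2 falls from each list are named. Each value is the response in Mreg minus that in IFN-γ macrophages. Among the members these were Nfkb1 (-0.68), Relb (1.40) and Irak3 (-1.83).

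Of 23 kinases and adaptors, 6 were called higher and 4 lower, and the differences were 1.26 for Traf5, 0.93 for Tab2, -2.11 for Tirap and -0.98 for Ikbkg. Tirap, the adaptor that brings Myd88 to Tlr2 and Tlr4, was lower with LPS in Mreg, by 1.24. Of 5 other Rel and IκB proteins, 1 was called higher and 2 lower, with differences of 0.62 for Nfkbib, -1.74 for Nfkbid and -0.96 for Nfkbie.

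Of 13 brakes, 2 were called higher and 1 lower: Trim30a had 1.13, Tax1bp1 0.56 and Tnip3 -2.13. Of 10 receptors, 3 were called higher and 2 lower. Those named gave 2.23 for Cd40, 1.91 for Tlr2, -2.24 for Tlr4 and -1.11 for Tnfrsf1b, and Tlr4 was lower with LPS in both cultures, by 3.12 in Mreg and 0.88 in IFN-γ macrophages. Of 20 targets tested, 3 were called higher and 6 lower, with a median of -0.97 over the list. Those named had differences of 4.41 for the chemokine gene Ccl5, 2.44 for Marcksl1 and -2.59 for Ccl4. The test called 35.0% of all genes, and the cause of these differences was not tested.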

How the results depend on the processing

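Of 77 called member results among 150, 48 kept their call and direction under every alternative and every omission of 1 array, and 29 changed at least once. Among those not called, 25 changed sign and 15 were called under some setting. Called values that turned sign were Rel with IL-4 (-0.16), Il1r1 with IL-4 (-0.073) and with dexamethasone (-0.24) and Ccl22 with IL-4 (-0.12), all under normexp correction, and, as the mean of all probes, Cflar in M0 (-0.10) and Nfkb1 in unsorted Mreg (0.17). Counts of called members moved as follows. IFN-γ in Mreg had 2 with probe means, with the compared groups alone and on the second scan day, against 4, and IFN-γ in IFN-γ macrophages had 2 with probe means, against 4. The difference of IFN-γ responses had 1 with the compared groups alone, against 0. IL-4 had 3 with the compared groups alone and 1 on the second scan day, against 6. Immunoglobulin had 0 by limma under normexp, without the filter, with the compared groups alone and on the second scan day (3 to 4 at an unadjusted p below 0.05), and 2 with the slide as a random block. Unsorted Mreg had 0 by limma under normexp, with the compared groups alone and on the second scan day (1 to 2 unadjusted), and 1 without the filter or with probe means.

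With each array left out in turn, 10 members were called in both LPS comparisons, 3 to 4 for their difference, 2 to 4 with IFN-γ in Mreg, 3 to 4 with IFN-γ in IFN-γ macrophages and 0 for that difference. Between cultures there were 6 with IFN-γ, 2 to 6 without it and 4 to 6 with LPS added; IL-4 had 2 to 4, dexamethasone 4 to 5, immunoglobulin 0 to 1, Mo-DC 7 to 8, M0 7 to 8 and unsorted Mreg 0 to 2. The cause of these changes was not tested. The fit with the series number as a replicate block called Nfkbiz for the difference of LPS responses (adjusted p = 0.028) and with IFN-γ in IFN-γ macrophages (0.041), and it changed no other member's call. Without Mreg replicate 2 or IFN-γ macrophages replicate 3 the LPS difference of Nfkbiz was called too (-2.06 and -1.72). Nfkbia was called for that difference after quantile normalization (-0.85, adjusted p = 0.02). The median of all genes with LPS in Mreg was 0.17, -0.02 after quantile normalization and 0.44 without the filter; every member but Nfkb1 with probe means stayed called there. Signal near background limits Rel, whose calls with LPS in IFN-γ macrophages, in Mo-DC and in M0 ended under normexp.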
